A study of Mus musculus with 4 samples.

Results

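Selenow (Entrez Gene 20364, older symbol Sepw1) encodes selenoprotein W, a small cytosolic protein with a thioredoxin-like fold. Its probes were selected by gene name, and the gene by family and not by its values: the targeted selenoprotein T belongs to the same Rdx family, in which Selenow was taken as the closest relative with a value on every array, without a sequence comparison here. It was 1 of 12347 named genes in the table and 1 of 4754 genes with a value on all 4 arrays. A single probe of the 22534 in the table carried its name.

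NIH 3T3 cells, a mouse fibroblast line, had been stably transfected under hygromycin selection and grown with added sodium selenite. The first knockdown group carried siSelT-1, a pU6-m3 construct aimed at nucleotides 205 to 224 of the Selt mRNA, and the second carried siSelT-5, aimed at nucleotides 971 to 989 of the same mRNA. Control cells carried the pU6-m3 vector, and all cells shared 150 µg/ml hygromycin B, 10% FBS and 100 nM selenite. Each construct was measured on 2 two-colour arrays, from separate cultures, with knockdown RNA in Cy5 and vector RNA in Cy3 on every array. Whether the cells were pools or single clones is not given in the sources used here. The targeted gene was not analysed here, so its knockdown could not be checked on these arrays.

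Rdx proteins are redox proteins that carry a cysteine, a pair of other residues and selenocysteine, the selenium analogue of cysteine, in an exposed loop; Mien1 is a member with cysteine in its place. Selenoprotein W binds glutathione, is abundant in skeletal muscle, heart and brain, and has been found in complexes with 14-3-3 proteins, whereas selenoprotein T sits in the membrane of the endoplasmic reticulum. In rodents Selenow mRNA is among the selenoprotein mRNAs that fall when selenium is short. A two-colour array gives the ratio of knockdown to vector RNA and not the level of a gene, so no statement on how abundant Selenow mRNA was can be made.

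The gene lies at chr7:15917208-15922371 of GRCm38.p6, on the minus strand. Its RefSeq promoter window, chr7:15922322-15922621, is shown because it holds a core letter pattern of the metal response element, an element that has been described upstream of the rat gene. The window runs from 250 bases before the annotated start to 50 after it, read 5′ to 3′ on the strand of the gene. Capitals mark the bases that match TGCGCNC on either strand.

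Selenow promoter: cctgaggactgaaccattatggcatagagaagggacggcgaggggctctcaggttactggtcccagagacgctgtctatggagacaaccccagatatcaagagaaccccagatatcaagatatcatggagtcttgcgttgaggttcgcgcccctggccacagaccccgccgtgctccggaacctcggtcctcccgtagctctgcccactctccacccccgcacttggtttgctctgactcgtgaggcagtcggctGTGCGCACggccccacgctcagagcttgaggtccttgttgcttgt

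The capitals hold 2 overlapping matches, TGCGCAC on each strand, which together cover positions 6 to 13 counted from the annotated start. TGCACNC, TGACNNNGC (the core of the antioxidant response element) and GGGCGG (the GC box) had 0 matches on either strand, which says only that these letters are not in this window. TGCGCNC occurred in 15.5% of the 27025 RefSeq promoter windows, taking the first listed start of each gene, and in 28.7% of those of the 3930 tested genes that had one. The median log2 ratio over both constructs was 0.23 for tested genes with the pattern and 0.26 for those without it. A match is a description of letters, and no binding was measured.

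Selenow stood above vector on all 4 arrays. Its log2 ratio was 1.26 and 0.87 with siSelT-1 and 1.39 and 1.18 with siSelT-5. As folds, Selenow mRNA was 2.39 and 1.83 times the vector level with siSelT-1 and 2.63 and 2.27 times the vector level with siSelT-5. The siSelT-1 and siSelT-5 arrays overlapped, with siSelT-1 replicate 2 the lowest and siSelT-5 replicate 1 the highest. In bulk RNA of a culture, a larger share of cells with the transcript and more transcript per cell cannot be told apart. The base of the logarithm is not given in the sources used here and was read as 2. The direction was read from the order of the titles and from the dyes, and a reversed ratio would turn Selenow, and all genes named, the other way. Since knockdown RNA was always in Cy5, a dye effect on the Selenow probe and an effect of the constructs cannot be told apart against vector. Whether siSelT-1 and siSelT-5 arrays used the same vector RNA is not given in the sources used here.

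Ratios also have to be read against where each array as a whole lay. The shared probes, those 7038 with a value on all 4 arrays, had medians of 0.19 and 0.09 with siSelT-1 and 0.43 and 0.36 with siSelT-5, a mean of 0.27. Probes with any value numbered 7689 and 9232 with siSelT-1, against 20268 and 18361 with siSelT-5. Over all values of an array the medians were 0.18 and 0.06 with siSelT-1 and -0.22 and -0.19 with siSelT-5, so that for siSelT-5 the choice of probes turned the sign of the median. With every array centred on its shared-probe median, which is meant by centred below, Selenow stood at 1.07 and 0.78 with siSelT-1 and at 0.97 and 0.82 with siSelT-5. This brought the construct means closer together. Centred on the median of all its values instead, Selenow stood at 1.08 and 0.80 with siSelT-1 and at 1.62 and 1.37 with siSelT-5, where the constructs no longer overlapped. All values were above 0 with either centring.

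**Figure D1:**
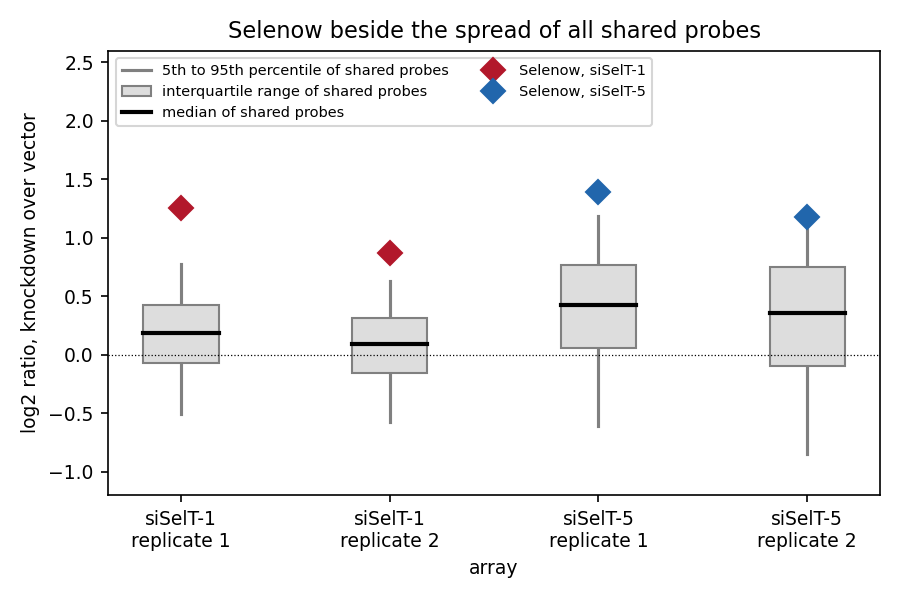
Log2 ratio of knockdown over vector on each array, with Selenow as a diamond, the median of the 7038 shared probes as a black bar, their interquartile range as a box and their 5th to 95th percentile as a line. Selenow lies above the line on 3 arrays and inside its upper end on siSelT-5 replicate 2, at 1.18 against a 95th percentile of 1.25.

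In rank among the shared probes, Selenow stood higher on each siSelT-1 array than on each siSelT-5 array. It exceeded 99.2% and 98.7% of the shared probes with siSelT-1, against 98.3% and 93.2% with siSelT-5. Measured in median absolute deviations of the shared probes, it lay 4.33 and 3.33 deviations above the median with siSelT-1 and 2.76 and 1.96 with siSelT-5. A median absolute deviation was 0.25 and 0.23 log2 with siSelT-1 and 0.35 and 0.42 with siSelT-5, so the shared probes were spread more widely on the siSelT-5 arrays. Among the 4754 tested genes 7, or 0.147%, stood above Selenow on each of the 4 arrays.

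The first comparison pooled the constructs and asked whether Selenow mRNA in knockdown cells differed from that in vector cells. Selenow averaged 1.18 ± 0.22 (SD, n = 4), a 2.26-fold rise with a 95% interval of 1.90 to 2.68, and passed limma's test across all 4754 genes (adjusted p = 0.00161). The SD spans the arrays of both constructs, while the interval and p rest on the spread between the 2 arrays of each construct. Whether those arrays come from separate transfections is not given in the sources used here. Of all genes tested, 45.7% passed as higher in this comparison, so the call alone does not set Selenow apart, while its mean ratio ranked 33rd of 4754. After centring, Selenow averaged 0.91 ± 0.14 (SD, n = 4), or 1.88-fold, and passed again (limma, adjusted p = 0.00430), where 20.5% of genes passed as higher. The call was lost by a small margin without siSelT-1 replicate 1, at 1.08 (limma, adjusted p = 0.0515), a fit in which 0 genes passed and 1846 had an unadjusted p under 0.05. An exact sign-flip permutation test over the 4 arrays, two-sided, gave p = 0.125 as deposited and centred, which is the smallest p that 4 arrays allow.

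Each construct was then set against vector alone. With siSelT-1 Selenow averaged 1.06 ± 0.28 (SD, n = 2), or 2.09-fold with a 95% interval of 1.64 to 2.67, and passed (limma, adjusted p = 0.0291), where 10.3% of genes passed as higher. With siSelT-5 it averaged 1.29 ± 0.15 (SD, n = 2), or 2.44-fold with an interval of 1.91 to 3.11, and passed (limma, adjusted p = 0.00225), where 47.6% of genes passed as higher. Centred means were 0.92 ± 0.21 and 0.89 ± 0.11 (SD, n = 2 each), and both passed (limma, adjusted p = 0.0299 for siSelT-1 and 0.00846 for siSelT-5), where 3.83% and 19.2% of genes passed as higher. The siSelT-1 call lay close to the threshold: it was lost without siSelT-1 replicate 1 (0.87, adjusted p = 0.587) and without siSelT-1 replicate 2 (1.26, adjusted p = 0.397), fits that leave 1 siSelT-1 array and in which 0 genes passed, with 390 and 585 at an unadjusted p under 0.05. It was also lost when genes with a value on 1 array of each construct entered the fit (1.06, adjusted p = 0.0506).

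**Figure D2:**
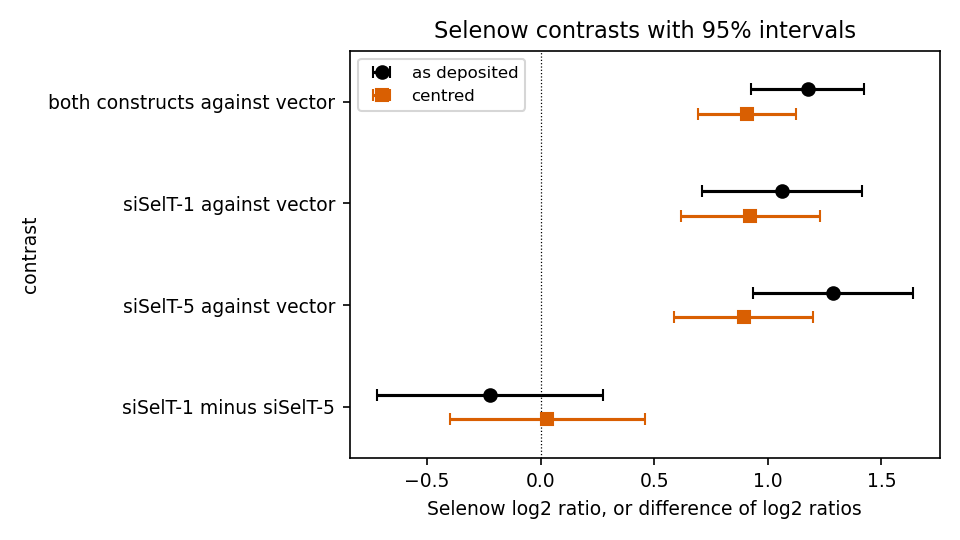
Selenow log2 ratio, or difference of log2 ratios, on the x axis for each contrast, with 95% intervals from limma, as deposited (circles) and centred on the shared-probe medians (squares). The intervals against vector lie above 0 on both scales and those of siSelT-1 minus siSelT-5 span 0.

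Replicate cultures of siSelT-1 lay farther apart for Selenow than for most genes. Its SD between them was 0.28, larger than that of 91.8% of the tested genes, whose median SD was 0.10. Between the siSelT-5 cultures its SD was 0.15, larger than that of 45.0% of genes, whose median SD was 0.18. After centring the SDs of Selenow were 0.21 and 0.11, larger than those of 87.1% and 33.4% of genes.

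The constructs were compared directly to ask whether they moved Selenow to different degrees. siSelT-1 minus siSelT-5 was -0.22 (95% interval -0.72 to 0.27) and did not pass (limma, adjusted p = 0.453), in a comparison where 0.0631% of genes passed. Centring turned its sign, to 0.03 (interval -0.40 to 0.46, limma adjusted p = 0.930). An exact permutation of the construct labels gave p = 0.667, with 0.333 the smallest p that 2 arrays against 2 allow. Differences from -0.72 to 0.46 log2 lie within at least 1 of these intervals. With arrays centred on all their own values, which differ in number between the constructs, siSelT-1 minus siSelT-5 was -0.56 and passed (limma, adjusted p = 0.0493), a fit in which 2512 genes passed.

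The value of Selenow rests on 1 probe, so the agreement of probes elsewhere in the table is an indirect gauge of its reliability. Only probes with values on all arrays entered it. This leaves out probes opposite in sign to a tested one, as given for Glrx3 and Rictor below. Over 949 genes with 2 to 8 probes on all arrays, the SD between the mean ratios of probes of a gene had a median of 0.22 and a root mean square of 0.32. In 24 of these genes the highest probe averaged 1 or more, the range in which Selenow lies. The other probes of these genes averaged above 0 in 23 genes and above the mean shared-probe shift of 0.27 in 20. The median of these other probes was 0.68, against 0.25 over all genes tested, so means above 0 were common in the table at large. A highest probe is by its choice above the others, so these medians describe the table and give no corrected value for Selenow.

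Of the 5 genes listed for the Rdx family, 3 were tested, and all 3 rose as deposited, where 45.7% of all genes did, at a family median of 0.64 against 0.25 over all genes tested. Mien1, the cysteine member, had log2 ratios of 0.78 and 0.42 with siSelT-1 and 0.53 and 0.76 with siSelT-5. Its arrays overlapped between constructs, as those of Selenow did, at a mean of 0.62 ± 0.17 (SD, n = 4; limma, adjusted p = 0.00451). Selenoh, which encodes a nuclear selenoprotein that binds DNA, had 0.52 and 0.31 with siSelT-1 and 0.61 and 1.13 with siSelT-5. Its siSelT-5 values were both above its siSelT-1 values, and its mean was 0.64 ± 0.35 (SD, n = 4; limma, adjusted p = 0.00634). After centring Mien1 passed, at 0.35 (limma, adjusted p = 0.0316), and Selenoh did not, at 0.38 (0.0505), so that 2 of the 3 passed as higher, where 20.5% of all genes did. Selenot and Selenov were not analysed here.

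Across selenoprotein genes, 14 of 24 listed were tested, and Selenow was the highest on 3 of the 4 arrays and second to Dio2 on siSelT-1 replicate 2. Of the 14, 9 passed as higher and 1 as lower for both constructs, beside 45.7% and 8.04% of all genes, with a median of 0.39. After centring 4 passed as higher and 1 as lower, beside 20.5% and 21.9% of all genes, with a median of 0.13. The count depended on the siSelT-1 arrays: 0 passed without siSelT-1 replicate 1, where 7 had an unadjusted p under 0.05, and 4 passed as higher and 0 as lower without siSelT-1 replicate 2. Of the 10 not tested, 6 had a probe with values on fewer arrays, and these were mixed in sign. Gpx3, which encodes the plasma glutathione peroxidase, had 0.72 on siSelT-1 replicate 1 and 0.51 and 0.87 on the siSelT-5 arrays. Selenoo had 0.23 and 0.22 with siSelT-1 and -0.06 on siSelT-5 replicate 2. On the siSelT-5 arrays Sephs2 had -0.55 and 1.03, Txnrd2 -1.97 and 0.10, and a Selenoi probe -0.11 and -0.54. Another Selenoi probe had 0.20 and Gpx2 0.37 on siSelT-5 replicate 1.

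The selenoprotein genes nearest to Selenow in ratio have unlike functions. Dio2, the deiodinase that activates thyroid hormone, had 1.02 and 0.90 with siSelT-1 and 1.32 and 0.98 with siSelT-5, and rose (1.05, limma adjusted p = 0.00161). Selenok, which encodes an endoplasmic reticulum membrane protein, had 0.73 and 0.63 with siSelT-1 and 0.85 and 1.06 with siSelT-5, and rose (0.82, adjusted p = 0.00179). Both had all 4 values above 0.5, and both also passed after centring (adjusted p = 0.00465 and 0.00739).

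Gpx4, which reduces lipid hydroperoxides, had 0.46 and 0.46 with siSelT-1 and 0.92 and 1.18 with siSelT-5, and rose over both constructs to 0.75 (limma, adjusted p = 0.00204). With siSelT-1 alone it did not pass (adjusted p = 0.0574). Selenop, the plasma selenium carrier, was below vector on all 4 arrays, at -0.61 and -0.68 with siSelT-1 and -0.12 and -0.31 with siSelT-5. It was the 1 selenoprotein gene that fell (-0.43, limma adjusted p = 0.00773). With siSelT-5 alone Selenop did not pass as deposited (-0.21, adjusted p = 0.160) but did after centring (-0.61, adjusted p = 0.0119).

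Gpx1, the cytosolic glutathione peroxidase, is the standard example of an mRNA that follows selenium supply, as Selenow mRNA does. It had 0.03 and -0.13 with siSelT-1 and 0.77 and 0.73 with siSelT-5, so that, unlike in Selenow, the constructs did not overlap. It did not pass for siSelT-1 (-0.05, limma adjusted p = 0.766) and rose with siSelT-5 (0.75, adjusted p = 0.00383) and over both constructs (0.35, adjusted p = 0.0139), the last not after centring (0.08, adjusted p = 0.357). The difference siSelT-1 minus siSelT-5 in Gpx1 was -0.81 and missed the threshold (adjusted p = 0.0546).

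Of the remaining selenoprotein genes 3 rose and 4 did not pass. Msrb1, a methionine sulfoxide reductase gene, averaged 0.44, Selenom, for an endoplasmic reticulum thioredoxin-like protein, 0.56 and the thioredoxin reductase gene Txnrd3 0.25, and each passed as deposited and not after centring (limma, adjusted p = 0.0100, 0.0451 and 0.0469 as deposited). Selenom had 0.97 and 0.64 with siSelT-1 but 0.83 and -0.22 with siSelT-5, so its siSelT-5 cultures lay on both sides of vector. Selenof (0.22) and Selenos (0.03), which act in the endoplasmic reticulum, Txnrd1 (0.35), for the cytosolic thioredoxin reductase, and Selenon (-0.11) did not pass (limma, adjusted p 0.0580 to 0.827).

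**Figure D3:**
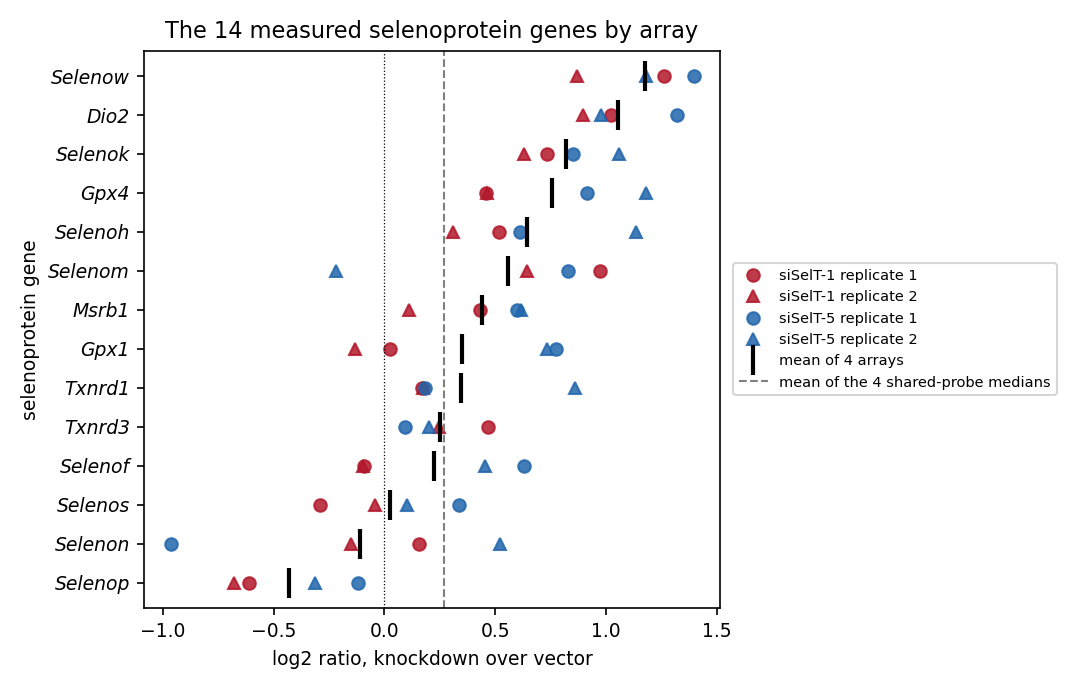
Log2 ratio of knockdown over vector for the 14 tested selenoprotein genes, one row per gene ordered by mean, with the 4 arrays as coloured circles (replicate 1) and triangles (replicate 2), the mean as a black tick and the mean shared-probe median of 0.27 as a dashed line. Selenow is at the top with a mean of 1.18, and Selenop at the bottom with -0.43.

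Of the genes that build or decode selenocysteine, those tested moved both ways. Of 16 listed, 6 were tested, and 2 passed as higher and 2 as lower for both constructs, beside 45.7% and 8.04% of all genes, with a median of 0.17 against 0.25 over all genes tested. After centring 1 passed as higher and 2 as lower, beside 20.5% and 21.9% of all genes. Secisbp2l, a relative of the protein that binds the selenocysteine insertion element, fell, with -0.10 and -0.23 with siSelT-1 and -0.86 and -0.96 with siSelT-5 (-0.54, limma adjusted p = 0.00363). With siSelT-1 alone Secisbp2l did not pass (-0.17, adjusted p = 0.331). Trit1, named after its values were seen to complete the 2 that fell, modifies an adenosine beside the anticodon of some tRNAs and was at -0.46 and -0.84 with siSelT-1 and -0.33 and -0.40 with siSelT-5, and fell to a mean of -0.51 (adjusted p = 0.00756). With siSelT-5 alone Trit1 did not pass as deposited (-0.36, adjusted p = 0.0644). Eif4a3, which can hold back selenoprotein translation, and Rpl30, a ribosomal protein that binds the insertion element, were the genes that rose. Eif4a3 had 0.20 and 0.00 with siSelT-1 and 0.92 and 0.86 with siSelT-5, and averaged 0.50 (limma, adjusted p = 0.00489), but did not pass with siSelT-1 alone (0.10, adjusted p = 0.569). Rpl30 had 0.00 and 0.13 with siSelT-1 and 0.86 and 0.85 with siSelT-5, and averaged 0.46 (adjusted p = 0.00551), but did not pass after centring (0.19, adjusted p = 0.0966) or with siSelT-1 alone (0.06, adjusted p = 0.715).

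A selenocysteine codon is a UGA that can also be read as a premature stop, and nonsense-mediated decay removes some selenoprotein mRNAs when selenium is short. Of 16 listed decay factors 7 were tested, and 3 passed as higher and 0 as lower, beside 45.7% and 8.04% of all genes, with a median of 0.13. Rbm8a, of the exon junction complex, averaged 0.54 and the release factor genes Etf1 and Gspt1 averaged 0.39 and 0.27 (limma, adjusted p = 0.0156, 0.0231 and 0.0452). After centring 0 passed as higher and 2 as lower, beside 20.5% and 21.9% of all genes. Of the 9 not tested, 3 had probes, valued on the siSelT-5 arrays alone: Smg1, Smg6 and Smg8. These ran from -1.14 to -0.25 on siSelT-5 replicate 1 and from -1.48 to -0.53 on siSelT-5 replicate 2. The medians of all values on these arrays were -0.22 and -0.19. A further Rbm8a probe had -0.31 and 0.40 there.

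Among partners, 6 of 7 14-3-3 genes were tested, and 3 passed as higher and 0 as lower, beside 45.7% and 8.04% of all genes, with a median of 0.32. Ywhaz averaged 0.56 over the 49 of its 68 probes with values on all arrays (limma, adjusted p = 0.00313). These gave means of 0.90 and 0.84 on the siSelT-5 arrays. Its remaining probes, valued on fewer arrays, mostly stood below 0 there. They ran from -1.80 to 0.31 on siSelT-5 replicate 1 and from -1.49 to 0.48 on siSelT-5 replicate 2. Ywhab and Ywhag, for the beta and gamma proteins, averaged 0.48 and 0.47 (limma, adjusted p = 0.00713 and 0.0167). Ywhab had 0.20 and 0.11 with siSelT-1 and 0.66 and 0.94 with siSelT-5, so its constructs did not overlap. After centring 1 of the 6, Ywhaz, passed as higher, where 20.5% of all genes did.

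Glutathione, which selenoprotein W binds, is made and recycled by the next list, of which 7 of 16 genes were tested and 4 passed as higher and 0 as lower, beside 45.7% and 8.04% of all genes, with a median of 0.59. Gclm, the regulatory subunit of the rate-limiting ligase, had 0.77 and 0.82 with siSelT-1 and 0.69 and 0.61 with siSelT-5, and rose to 0.73 ± 0.09 (SD, n = 4; limma, adjusted p = 0.00189). All 4 of its arrays lay close together. Glrx3, a glutaredoxin gene, had 0.24 and 0.27 with siSelT-1 and 1.21 and 1.26 with siSelT-5, and averaged 0.74 (adjusted p = 0.00181). Further Glrx3 probes, without values on all arrays, stood at -2.65 and -3.01 on siSelT-5 replicate 1, where the tested probe had 1.21, and the first of them at 0.02 on siSelT-1 replicate 2 and 0.05 on siSelT-5 replicate 2. Slc3a2, a subunit of amino acid transporters that include the cystine importer, averaged 0.69 (adjusted p = 0.00204). Of the 9 genes not tested, 6 had a probe with values on fewer arrays, and these were mixed in sign. Gclc had -0.75 and -1.14 on the siSelT-5 arrays. Slc7a11 probes had -1.83 and -1.93 on siSelT-5 replicate 1, and another had -0.41 and -0.09 on the siSelT-5 arrays. A Ggt5 probe had 1.04 and 1.60 there and a Gss probe 0.69 and 0.07. After centring 3 of the 7 tested genes passed as higher and 2 as lower, beside 20.5% and 21.9% of all genes. The lower genes were Gsr and Glrx, at -0.57 and -0.89 (limma, adjusted p = 0.0170 and 0.0305).

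In cultured human epithelial cells selenoprotein W has been tied to the epidermal growth factor receptor and to p53 and its target p21. Of 7 genes listed from that work 4 were tested, with 3 higher and 1 lower for both constructs, beside 45.7% and 8.04% of all genes, and a median of 0.35. Cdkn1a, which encodes p21, had 0.61 and 0.65 with siSelT-1 and 1.03 and 1.21 with siSelT-5, and rose to 0.87 (limma, adjusted p = 0.00161). Egfr, the receptor gene, had -0.32 and -0.25 with siSelT-1 and -1.19 and -1.21 with siSelT-5, and fell to -0.74 (adjusted p = 0.00181). Its values were below 0 on all 4 arrays, with siSelT-5 lower than siSelT-1 on both, but the difference between constructs missed the threshold (0.91, adjusted p = 0.0543). Rictor, a subunit of the mTOR complex 2, averaged 0.38 (adjusted p = 0.00991), with 0.49 and 0.61 on the siSelT-5 arrays. A further Rictor probe had -0.84 and -0.99 there and another -2.05 on siSelT-5 replicate 1, opposite in sign. After centring Cdkn1a passed as higher and Egfr as lower, beside 20.5% and 21.9% of all genes, and the other 2 did not pass.

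The genes with a 4-array pattern most like that of Selenow were found by the root mean square difference of log2 ratio over the 4 arrays, which centring does not alter. The 10 nearest of the other 4753 genes differed by 0.10 to 0.19, against a median of 0.96 over all of them. Rps6kb2, a ribosomal S6 kinase gene, was nearest (0.10), with 1.26 and 0.93 with siSelT-1 and 1.52 and 1.31 with siSelT-5. Rph3a, for a Rab effector of vesicle release, followed (0.11), then the plakoglobin gene Jup (0.13), the coronin gene Coro2a (0.15), Apod, for a lipid-binding lipocalin (0.15), the calcium and calmodulin kinase gene Camk2b (0.16), Dio2 (0.16), Pramel12 (0.16), Fam178b (0.17) and the superoxide dismutase gene Sod1 (0.19). All 10 had 4 values above 0.6, and 9 of the 10 were, as Selenow, measured by 1 probe. The list is a description over 4 arrays that share their design, and it says nothing of shared control.

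**Figure D4:**
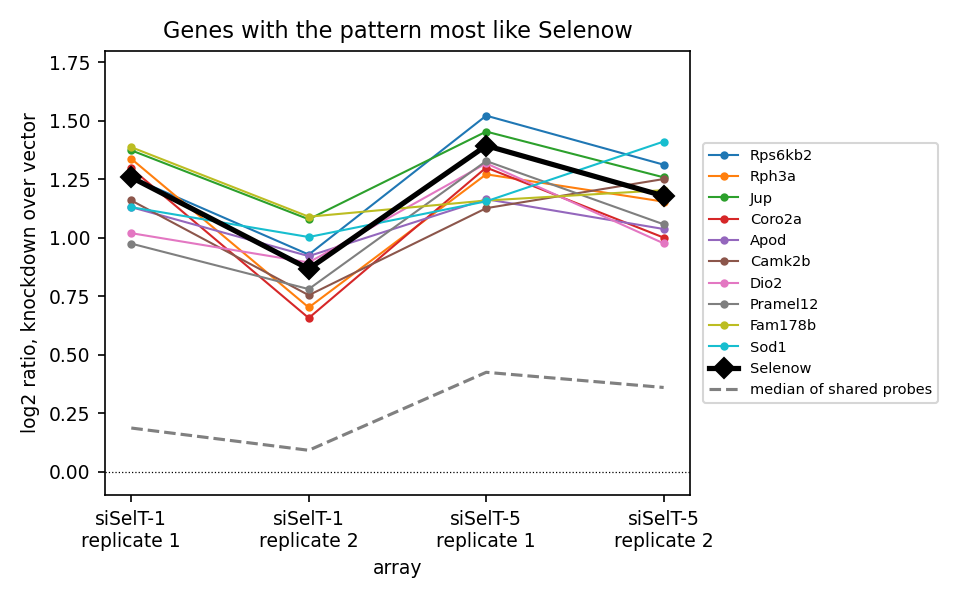
Log2 ratio of knockdown over vector on each array for Selenow (black diamonds) and the 10 genes with the smallest root mean square difference from it (coloured lines), with the median of the shared probes dashed. The 11 genes run between 0.66 and 1.52, and all 11 are lowest on siSelT-1 replicate 2, where the shared probes have their lowest median of 0.09.

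Neighbouring genes on chromosome 7 were set beside Selenow as the tested genes next in order, some of them far away. Of the 10 nearest tested genes, 5 on each side, 7 passed as higher and 0 as lower for both constructs as deposited, beside 45.7% and 8.04% of all genes, and 4 as higher and 1 as lower after centring, beside 20.5% and 21.9%. The closest toward higher coordinates, Nop53, is a ribosome assembly factor gene whose nearer end lies 15.5 kb away. Nop53 had 0.70 and 0.60 with siSelT-1 and 0.87 and 0.88 with siSelT-5, and rose (0.76, limma adjusted p = 0.00177). Napa, for the SNARE recycling protein alpha-SNAP, had 0.08 and 0.04 with siSelT-1 and 0.96 and 0.63 with siSelT-5, and rose over both constructs (0.43, adjusted p = 0.0110). Ccdc9, next along, averaged -0.06 and Sae1, for a SUMO-activating subunit, 0.20, and neither passed (adjusted p = 0.634 and 0.111). Zc3h4, the fifth on this side and 477 kb away, averaged 0.37 and passed as deposited (adjusted p = 0.0343).

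On the other side the nearest tested gene, Chmp2a, for a subunit of the ESCRT-III membrane scission complex, lay 2882 kb away and averaged 0.03 (limma, adjusted p = 0.885). Trim28, a transcriptional corepressor gene, averaged 0.77, the zinc finger gene Zfp446 0.92 and the vomeronasal receptor gene Vmn1r58 0.92, and all 3 passed (adjusted p = 0.00271, 0.00161 and 0.00257). Epn1, for an endocytic adaptor, averaged 0.53 and passed as deposited (adjusted p = 0.0138). Vmn1r58 and Epn1 lay 10504 and 10819 kb from Selenow, with many protein-coding genes between. Selenow had the highest mean of the 11 genes.

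**Figure D5:**
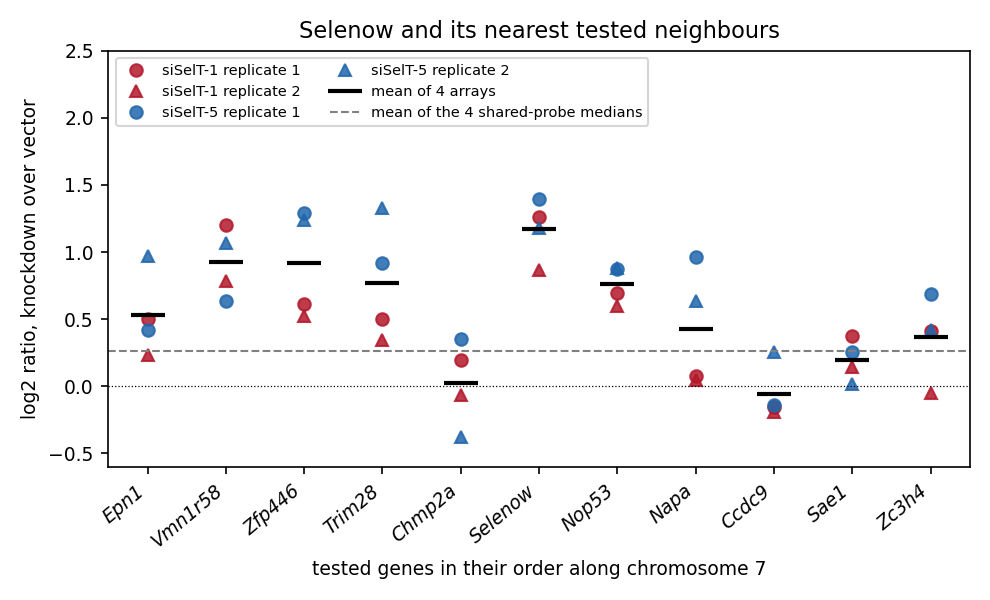
Log2 ratio of knockdown over vector for Selenow and the 5 nearest tested genes on each side, in their order along chromosome 7, with arrays as coloured circles (replicate 1) and triangles (replicate 2), means as black bars and the mean shared-probe median of 0.27 dashed. Selenow has the highest mean, 1.18, and Chmp2a and Ccdc9 lie near 0.

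A ratio cannot show whether a marker was present, so the fibroblast label was not checked by level. Of 14 fibroblast markers 8 were tested, and 4 passed as higher and 3 as lower for both constructs, or 2 and 4 after centring, beside the shares of all genes given above (45.7% and 8.04%, and 20.5% and 21.9% centred). The 4 higher as deposited include Postn, whose pooled mean of 0.43 joins opposite signs. It was at -0.78 with siSelT-1 (limma, adjusted p = 0.0296) and at 1.64 with siSelT-5 (adjusted p = 0.00202). Of 41 markers of muscle, endothelium, macrophages, fat and epithelium 5 were tested: Des (0.44), Tie1 (0.72), Pecam1 (0.70) and Lpl (0.64) passed as higher, where 45.7% of all genes did, and Lyz2 (-0.20) did not pass. After centring Des did not pass (0.18, adjusted p = 0.137) and Lyz2 passed as lower (-0.47, adjusted p = 0.00739). Muscle is a tissue rich in Selenow, and of its 14 markers Des alone was tested, at 0.34 and -0.04 with siSelT-1 and 0.82 and 0.65 with siSelT-5. The part of other cell types in the Selenow ratio was not tested.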

How the data were processed

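The deposited table holds a log ratio of Cy5 to Cy3 for every probe and array, read here as log2, as knockdown over vector per the labels; background correction, normalization and filter are not given in the sources used here. Probes were named from the platform annotation and updated by Entrez ID through GRCm38.p6, which matched 18041 of 18129 single-name probes and changed 0 symbols. Genes were the mean of single-name probes with a value on all 4 arrays, 4754 in all, 3796 of them with 1 probe.

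limma 3.58.1 in R 4.3.3 (lmFit, eBayes) fitted a mean for each construct, which leaves 2 residual degrees of freedom. Tests were two-sided, against 0 or between constructs, with Benjamini-Hochberg adjustment over all 4754 genes and a threshold of 0.05. The steps were tested on simulated data with no shift of whole arrays, so that test does not bear on calls under the shift seen here. The number of arrays limits the precision, and the vector cultures' own spread cannot be separated from that of the ratios.

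Selenow, the lists and the tests were chosen with earlier results of these data known. Named were Selenow, tested members of the Rdx and selenoprotein lists, up to 3 genes of each other list by unadjusted p, the 10 nearest patterns and 5 neighbours on each side. Trit1, Gsr and Glrx were added after their values were seen. So were listed genes and further probes valued on fewer arrays, Gclc and Slc7a11 among them. Sequences are from RefSeq. Alternatives were centring, scaling, missing values, single probes, robust eBayes, a replicate block and each array left out.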

Additional observations from a re-analysis of the deposited data

Results flagged for a closer look

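Postn, for the matrix protein periostin and 1 of the fibroblast markers, moved in opposite directions with the constructs, at -0.78 with siSelT-1 and 1.64 with siSelT-5, a difference of -2.42 (limma, adjusted p = 0.0219) or -2.17 after centring (0.0379). Its siSelT-1 values were -0.75 and -0.82 and its siSelT-5 values 1.72 and 1.55. Selenow itself was above vector with both constructs, and its difference between them did not pass.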

How the results depend on the processing

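For both constructs Selenow passed in all 7 settings that kept all arrays, at 0.91 to 1.22 (adjusted p 0.00146 to 0.00445), and ran from 1.08 to 1.27 with an array left out; its call was lost without siSelT-1 replicate 1. For siSelT-5 it passed in all 11 alternatives, lowest at 0.74 after centring and scaling, against 1.29 as deposited, and highest after centring on all values (arrays at 1.62 and 1.37). For siSelT-1 it ran from 0.87 to 1.26 with an array left out and did not pass with genes valued on 1 array of each construct (1.06, adjusted p = 0.0506). The difference turned to 0.030 after shared-probe centring and 0.46 after scaling as well, passed at -0.56 after centring on all values, and ran from -0.42 to -0.03 with an array left out. The replicate block left every Selenow call as it was (adjusted p = 0.00445, 0.0496 and 0.00546 against vector); the constructs share only replicate numbers, with r = 0.0758 between their deviations over 4754 genes.

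Genes passing were 2554 for both constructs (0 to 3190 with an array left out), 650 for siSelT-1 (0 to 2089), 2563 for siSelT-5 (1623 to 3027) and 3 for the difference (0 to 1796). For siSelT-1 they were 423 and 324 after centring on shared probes and on all values, 1588 after scaling, 58 with the looser filter and 35 with the replicate block; for siSelT-5 1460 after scaling; and for the difference 2512 after centring on all values, 15 after scaling, 6 with the looser filter and 0 with the block, where limma had 1674 at an unadjusted p under 0.05. Where 1 array of a construct was left, it was taken to vary as the other construct does; other causes were not tested. Selenow has 1 probe, so a choice among probes was not run. Signal over background was not analysed here.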
